A study of Mus musculus with 28 samples.

Results

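Accessible chromatin was described at 38 genes of reactive gliosis and inflammation in Müller cells, the radial glia of the retina. The genes were listed by name for their known roles, and they are 38 of 21938 protein-coding genes in the annotation GENCODE M21. They fall into 6 gliosis markers, 26 genes of cytokine signalling, 3 complement genes and 3 genes of antigen presentation.

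The cells were purified by magnetic sorting from retinae of 6-month-old db/db mice, which carry a mutation of the leptin receptor and become diabetic, and from control mice of the same age, labelled WT. According to the study's methods, controls comprised wild-type and db/+ animals, the strain was crossbred from stocks of different suppliers, and both sexes were used. Open chromatin was mapped with omni-ATAC, in which a transposase inserts adapters into accessible DNA, in 2 replicates per genotype. Each genotype is represented here by 1 list of peaks, which the labels attach to its replicate 1, and whether reads of both replicates were pooled is not given in the sources used here. With 1 list per genotype there was no replicate check, no p-value could be given, and every difference between the lists is a difference between these lists. The depth of the libraries is unknown from the lists, so intervals cover counting error only.

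Reactive gliosis is the response of glia to injury and metabolic stress, in which structural genes such as Gfap and Nes, encoding intermediate filaments, and secreted factors are induced. Cytokines of the IL-6 family signal through the shared receptor subunit gp130 to JAK kinases and STAT3, which drives Gfap in many glia, and SOCS proteins feed back on this pathway. TNF and IL-1 act through NF-kB, held in the cytoplasm by the inhibitor encoded by Nfkbia, and interferons act through STAT2 and IRF9. These routes switch on chemokines, complement and the loading of peptides on MHC class I, and in Müller cells they are known to accompany retinal disease.

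Promoters chosen for printing, after their values had been seen, are those that had a region over the start in the db/db list only (Serpina3n, Cxcl10, Edn2, Il33 and Icam1), those whose region ranked at least 10 points higher in db/db (Il6, Tnfaip3 and Rela), and that of Gfap, which had none in either list. Each shows 300 bases of RefSeq sequence on GRCm38.p6 (the mm10 build of the lists), on the strand of the gene from 5′ to 3′, with 250 bases before the start and 50 after it. Capitals mark letters that match a string written for a factor, on either strand: TTCNNNGAA for STAT, GAAANNGAA for the interferon response element (ISRE), TGANTCA for AP-1, TTGCNNAA for C/EBP, and longer strings for NF-kB and for the glucocorticoid receptor (GR). Runs in capitals that touch can hold overlapping matches.
Serpina3n, chr12:104406458-104406757, plus strand: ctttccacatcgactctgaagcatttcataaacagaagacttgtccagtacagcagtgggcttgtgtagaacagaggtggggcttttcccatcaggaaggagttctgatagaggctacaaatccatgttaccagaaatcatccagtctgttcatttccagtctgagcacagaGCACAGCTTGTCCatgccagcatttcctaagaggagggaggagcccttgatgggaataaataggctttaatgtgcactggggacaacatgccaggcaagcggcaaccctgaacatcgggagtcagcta
Cxcl10, chr5:92348840-92349139, minus strand: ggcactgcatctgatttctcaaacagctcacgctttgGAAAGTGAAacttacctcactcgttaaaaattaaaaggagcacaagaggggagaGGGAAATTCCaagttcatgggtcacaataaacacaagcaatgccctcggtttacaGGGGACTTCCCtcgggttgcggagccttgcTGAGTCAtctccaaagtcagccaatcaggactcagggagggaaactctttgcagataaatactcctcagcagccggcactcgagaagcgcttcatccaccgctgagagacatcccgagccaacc
Edn2, chr4:120160956-120161255, plus strand: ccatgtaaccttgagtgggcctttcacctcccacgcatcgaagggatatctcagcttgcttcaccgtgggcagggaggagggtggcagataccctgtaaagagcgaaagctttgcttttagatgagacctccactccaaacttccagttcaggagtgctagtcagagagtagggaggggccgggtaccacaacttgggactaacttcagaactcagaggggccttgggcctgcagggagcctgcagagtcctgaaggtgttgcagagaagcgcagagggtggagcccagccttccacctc
Il33, chr19:29924863-29925162, plus strand: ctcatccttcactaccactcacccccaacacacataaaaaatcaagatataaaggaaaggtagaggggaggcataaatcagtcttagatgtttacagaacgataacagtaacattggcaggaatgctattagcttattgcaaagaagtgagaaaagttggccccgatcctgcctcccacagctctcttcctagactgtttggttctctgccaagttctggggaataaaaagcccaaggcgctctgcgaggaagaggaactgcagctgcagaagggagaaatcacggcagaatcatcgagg
Icam1, chr9:21015690-21015989, plus strand: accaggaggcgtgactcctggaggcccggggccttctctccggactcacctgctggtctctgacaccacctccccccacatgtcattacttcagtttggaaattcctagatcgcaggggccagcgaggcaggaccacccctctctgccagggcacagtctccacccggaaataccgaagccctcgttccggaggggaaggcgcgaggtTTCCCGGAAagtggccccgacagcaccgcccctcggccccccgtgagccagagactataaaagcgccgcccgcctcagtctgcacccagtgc
Il6, chr5:30012864-30013163, plus strand: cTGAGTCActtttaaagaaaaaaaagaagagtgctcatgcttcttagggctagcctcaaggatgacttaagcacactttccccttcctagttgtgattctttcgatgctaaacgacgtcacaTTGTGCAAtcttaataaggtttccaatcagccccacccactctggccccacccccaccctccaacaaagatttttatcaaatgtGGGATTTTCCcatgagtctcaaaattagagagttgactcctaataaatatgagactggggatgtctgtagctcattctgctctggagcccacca
Tnfaip3, chr10:19015361-19015660, minus strand: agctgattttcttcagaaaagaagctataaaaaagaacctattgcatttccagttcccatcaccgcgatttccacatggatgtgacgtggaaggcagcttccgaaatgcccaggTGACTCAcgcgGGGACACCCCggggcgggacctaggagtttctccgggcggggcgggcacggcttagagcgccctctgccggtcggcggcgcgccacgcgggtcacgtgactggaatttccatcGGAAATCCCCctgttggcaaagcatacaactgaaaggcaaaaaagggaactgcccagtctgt
Rela, chr19:5637291-5637590, plus strand: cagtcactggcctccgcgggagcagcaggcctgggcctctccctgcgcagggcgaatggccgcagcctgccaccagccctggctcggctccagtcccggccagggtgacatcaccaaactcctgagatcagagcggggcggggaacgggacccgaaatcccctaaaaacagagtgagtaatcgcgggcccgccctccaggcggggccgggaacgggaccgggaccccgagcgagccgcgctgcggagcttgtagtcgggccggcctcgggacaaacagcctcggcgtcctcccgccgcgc
Gfap, chr11:102897151-102897450, minus strand: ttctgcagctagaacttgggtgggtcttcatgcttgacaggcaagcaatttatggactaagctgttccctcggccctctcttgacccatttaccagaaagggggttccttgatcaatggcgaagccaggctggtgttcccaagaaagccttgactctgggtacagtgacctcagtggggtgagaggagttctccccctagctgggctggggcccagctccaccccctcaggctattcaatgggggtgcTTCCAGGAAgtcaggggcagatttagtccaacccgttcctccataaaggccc

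The control list held 46189 regions after overlapping rows were merged, and the db/db list held 64883. Of all control regions 4.16% had no counterpart in db/db, whereas 31.3% of the db/db regions lacked one in control. The lists therefore differ in size before any gene is considered, and each count at the members is set beside the same count over all protein-coding genes. The label of the cells was checked on markers: 10 of 10 Müller cell markers (among them Glul, Rlbp1 and Aqp4) had a promoter region in both lists. Of 10 microglial markers 2 had one in each list. Of 6 astrocyte markers 4 had one in each list, and of 10 endothelial markers 4 had one in control and 5 in db/db. The astrocyte markers with one included Aldh1l1, whose upregulation the study reports as specific to Müller cells. Rod markers had one at 9 of 10 genes in control and at 4 of 10 in db/db, and 13 of the 28 control regions at rod genes were found in control only. The study's methods assume a small amount of astrocytes among the sorted cells, its text states that contamination by photoreceptors was unavoidable, and their part in the results at the members was not tested.

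A promoter was counted as open when a region lay within 1 kb of the start of any protein-coding transcript of the gene. In control 28 of 38 members (73.7%, 95% Wilson interval 58.0 to 85.0%) had an open promoter, against 58.5% of all protein-coding genes. In db/db it was 33 of 38 (86.8%, 72.7 to 94.2%), against 61.4%. The 28 members open in control were open in db/db too, and 0 closed, where 0.686% of the open promoters of all coding genes did. Of the 10 members closed in control 5 were open in db/db, namely Serpina3n, Edn2, Cxcl10, Il33 and C4b, where 8.13% of all coding genes closed in control were. Gfap, Lcn2, Il1b, Tnf and C3 had no promoter region in either list. With only the 46189 strongest db/db regions, only Edn2 of the 5 still gained a promoter region, and 2 members, Cntf and Icam1, lost theirs. At that size 3.16% of all coding genes closed in control gained a promoter region (288 of 9112), and 2.46% of those open in control lost theirs (316 of 12826).

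**Figure D1:**
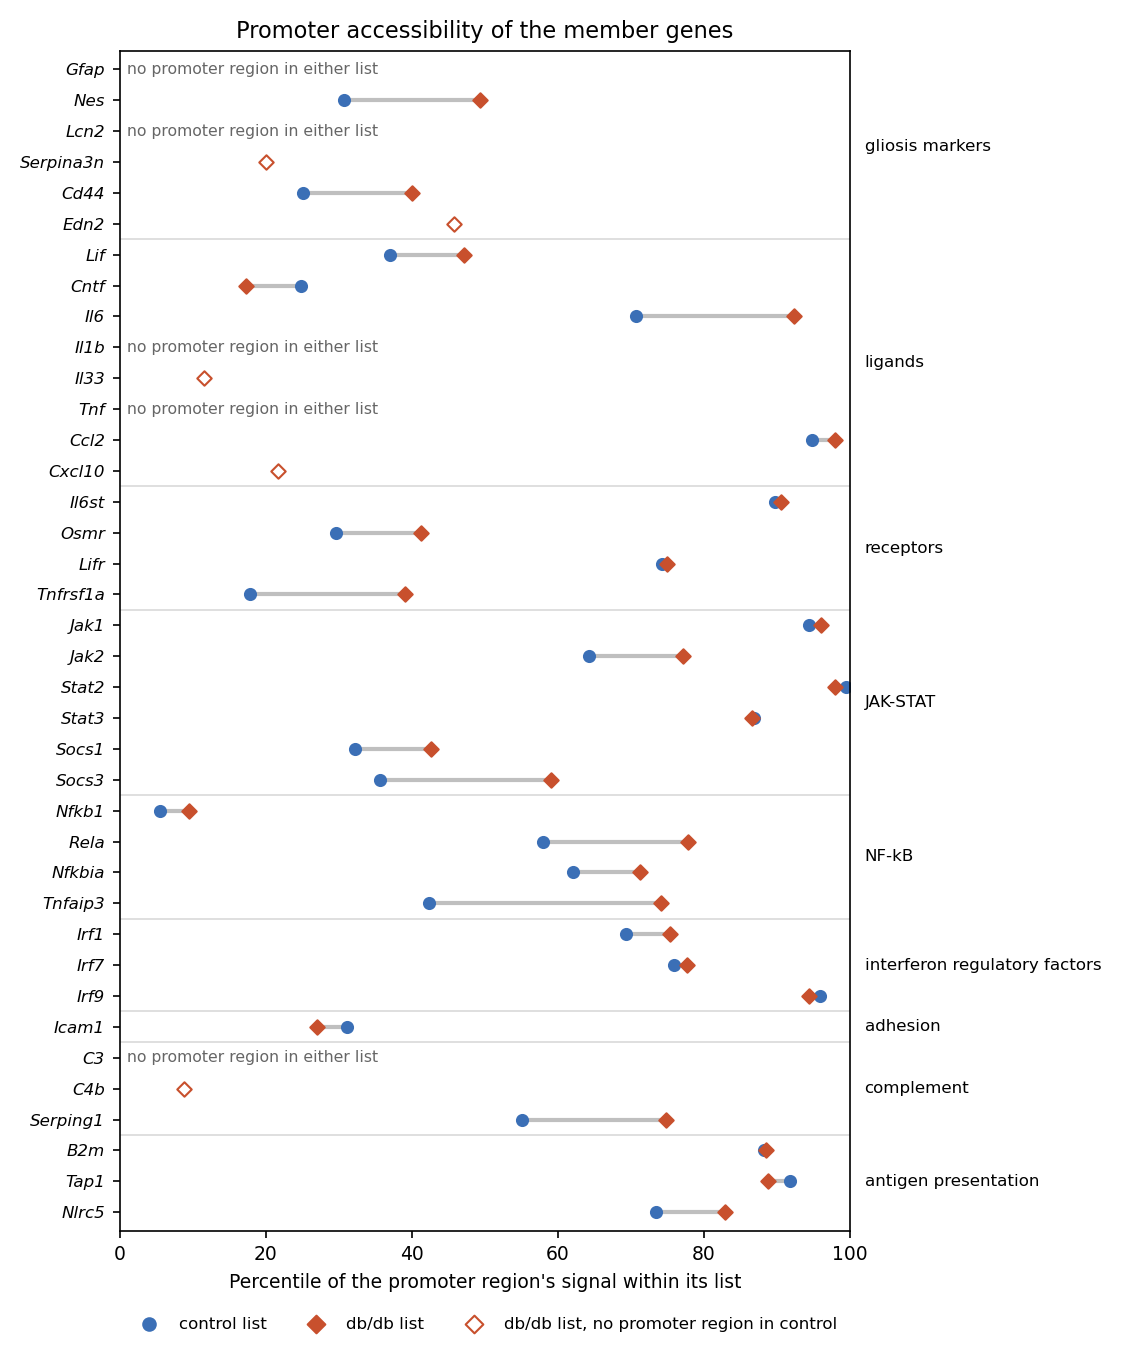
Percentile of the strongest promoter region's signal among all regions of its own list (x axis) for each of the 38 member genes (y axis, grouped by role), in the control list (circles) and the db/db list (diamonds). Open diamonds mark the 5 genes with a promoter region in db/db only, which lie between 8.76 and 45.8, and the 5 genes without a promoter region in either list are written as such.

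The strength of a region is given as the percentile of the authors' signal, a fold enrichment, within its own list. The median percentile of the open member promoters was 63.2 in control and 74.1 in db/db, below the medians of 77.9 and 80.5 for the open promoters of all coding genes. The db/db list holds many additional weak regions, and shared regions therefore sit at higher percentiles in it. For a comparison free of this, regions that paired 1 to 1 between the lists (43519 pairs) were ranked among each other in each list, and the change is the rank in db/db minus that in control, in percentile points.

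A region was assigned to a gene when it overlapped the gene or 5 kb to either side. The members had 73 regions in control and 107 in db/db, with a median of 1.5 and 2 per gene (1 in both lists for all coding genes). Of the 73 control regions 0 were found in control only (upper Wilson bound 5.00%), where 3.91% of the regions at coding genes were. Of the 107 db/db regions 34 were found in db/db only (31.8%, 23.7 to 41.1%), where 29.1% of those at coding genes were. The share at the members as a whole was thus close to the background. All coding genes with the same numbers of regions as the members would give 27.3 db/db-only and 2.50 control-only regions. The 34 db/db-only regions were mostly weak: their percentiles ran from 0.899 to 64.8 with a median of 16.8, while the shared member regions had a median of 69.7 in the same list. By position 15 lay in introns, 9 at promoters, 5 downstream, 3 upstream and 2 in exons.

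**Figure D2:**
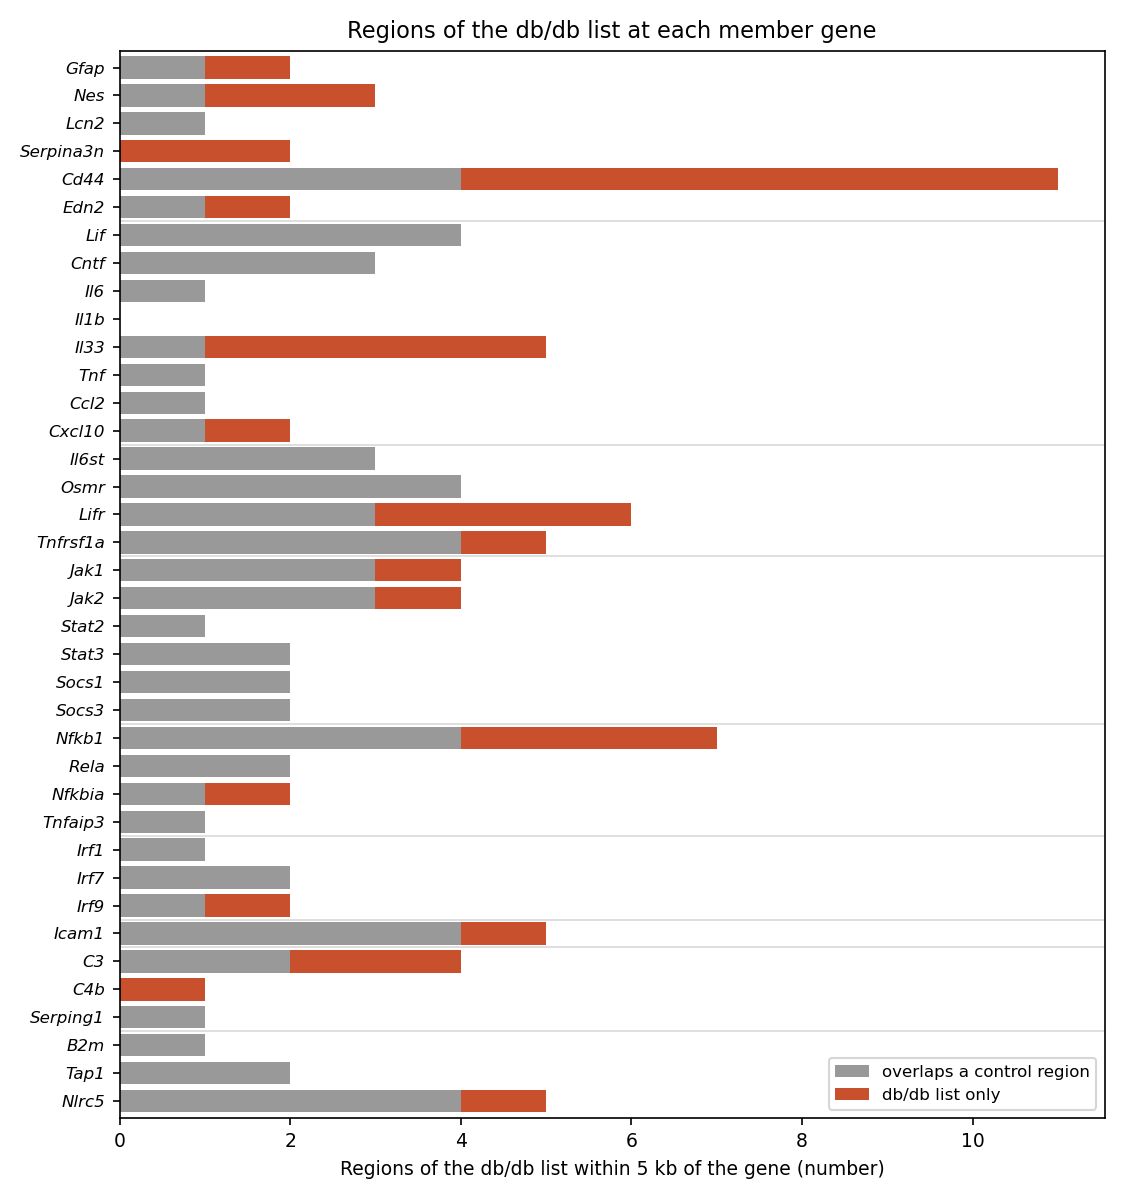
Number of regions of the db/db list (x axis) that overlap each member gene or 5 kb to either side (y axis). Grey parts overlap a control region and red parts were found in the db/db list only, 34 of 107 in all, of which 7 lie at Cd44 and 4 at Il33.

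Of the 4 groups the gliosis markers had the highest share of regions found in db/db only. It was 13 of 21 (61.9%, 40.9 to 79.2%), beside a background of 29.1%, and all coding genes with the same numbers of regions would give 5.97. The interval treats the regions as independent, although Cd44 alone held 11 of the 21 and 7 of the 13. It may thus be too narrow and is no test against the background. In the full lists the share did not rest on Cd44 alone, since without it 6 of 10 regions were db/db-only. With the lists at equal size the share was 5 of 13 (38.5%), where 11.6% of the regions at all coding genes were db/db-only. Without Cd44 it was then 2 of 6 (33.3%). In cytokine signalling the share was 17 of 72 (23.6%, 15.3 to 34.6%), in complement 3 of 6 (50.0%) and in antigen presentation 1 of 8 (12.5%). The groups are small and were not tested against each other. Marker genes of other cells also held db/db-only regions: 19 of 41 regions at endothelial markers (46.3%) and 17 of 42 at astrocyte markers (40.5%) were db/db-only, against 11 of 45 at Müller cell markers (24.4%) and 5 of 22 at microglial markers (22.7%). At equal size these shares were 3 of 23 (13.0%), 1 of 23 (4.35%), 2 of 34 (5.88%) and 0 of 15. In the full lists Flt1 held 10 of the 19 db/db-only regions at endothelial markers. Aldh1l1, counted here as an astrocyte marker, held 17 of the 42 regions of that list, 5 of them db/db-only. The study reports the upregulation of Aldh1l1 as specific to Müller cells. The part of other cells in the gliosis regions was not tested.

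**Figure D3:**
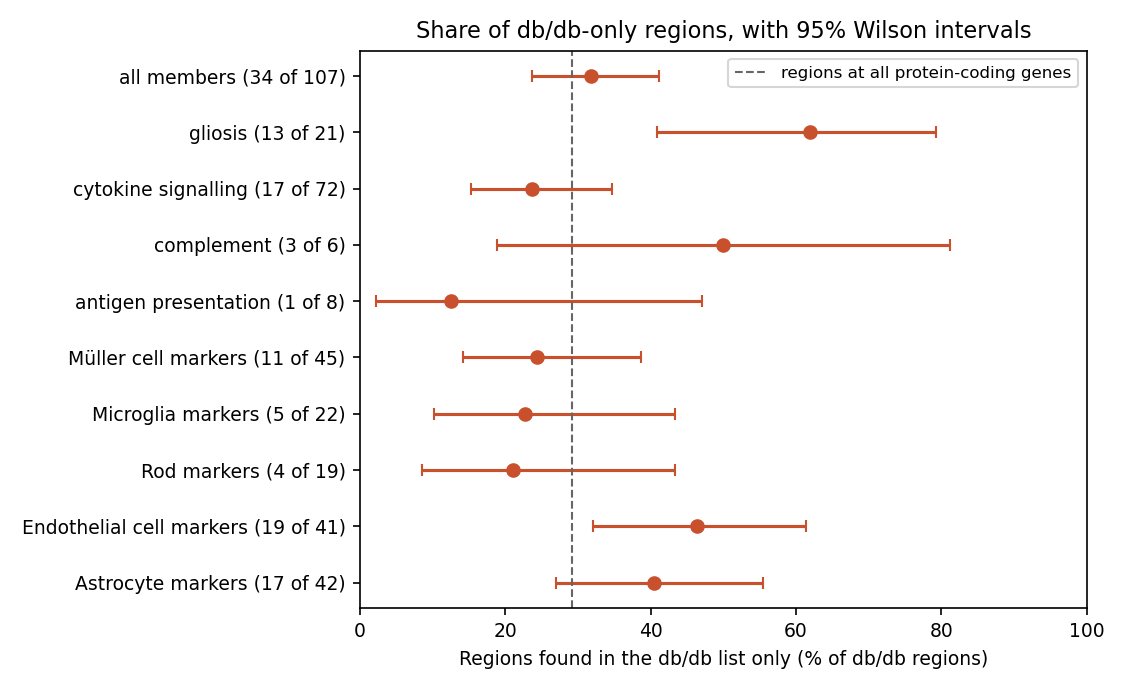
Share of db/db-only regions (x axis, % of the db/db regions at the genes, points) with 95% Wilson intervals (bars) for the members, their 4 groups and 5 lists of cell type markers (y axis, with the counts). The dashed line is the share at all protein-coding genes, 29.1%, and the gliosis group (61.9%) and the endothelial markers (46.3%) are the sets whose interval lies above it. The intervals treat regions of the same gene as independent and may be too narrow.

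Cd44 encodes a receptor for hyaluronan that is raised on reactive glia, and it had 4 regions in control, as many as 6 other members, and 11 in db/db, the most of the 38. All 7 that were found in db/db only lay in introns, with percentiles from 1.96 to 48.2. The shared regions included an intronic one at chr2:102820128-102821089 in the db/db list, whose rank was 59.0 in control and 79.8 in db/db, a change of 20.7 points. The promoter of Cd44 ranked 23.1 and 22.9. Cd44 spans 90525 bp, and a long gene has more room for regions.

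Serpina3n, which encodes a secreted inhibitor of serine proteases and is a marker of reactive astrocytes, had 0 regions in control and 2 in db/db. One covered the start (chr12:104406370-104407225, percentile 20.1, −log10 p of 31.8), with its summit 63 bp before the annotated start. The printed promoter holds a match to the GR string, the only one among the member promoters, and it lay inside that region. The other region was downstream, at percentile 5.70.

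Edn2, the gene of endothelin-2, which is released by stressed photoreceptors and acts on Müller cells, gained the strongest of the new promoter regions (chr4:120161122-120161635, percentile 45.8, −log10 p of 78.7). A downstream region of Edn2 stood at percentile 83.9 in control and 93.6 in db/db and ranked 7.47 points higher. None of the 6 strings matched in the printed promoter.

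Nes, the gene of nestin, had a promoter region in both lists at percentiles 30.7 and 49.3. Its change in rank was 3.40 points, or 13.3 when ranked by −log10 p. Nes also had 2 weak db/db-only regions at percentiles 2.98 and 0.899. Gfap, the classic gliosis marker, had no region within 1 kb of a protein-coding start. Its control region, at percentile 25.2, lay at the far 5′ end of the annotated gene, about the start of a transcript that is not annotated as coding, and the same region in db/db ranked 0.388 points higher. An exonic region at chr11:102892951-102893437 was found in db/db only, at percentile 50.1. The printed Gfap promoter holds a match to the STAT string that overlaps the start, outside every region of either list. Lcn2, encoding the iron-trafficking protein lipocalin-2, had 1 region in each list, at percentiles 97.9 and 97.1. That region lay at the start of the neighbouring gene 1110008P14Rik and says nothing on the Lcn2 promoter.

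Among the ligands of cytokine signalling, 4 of 8 had an open promoter in control and 6 of 8 in db/db. Il6, the gene of interleukin-6, had 1 region in each list, over the start. It stood at percentile 70.7 in control (signal 13.7) and 92.4 in db/db (signal 17.6), and its rank was 69.3 in control and 88.7 in db/db, a change of 19.4 points. Of the matches in the printed sequence the NF-kB string lay inside the control region and just outside the db/db region, and the AP-1 and C/EBP strings lay outside both.

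Ccl2, the gene of a chemokine that attracts monocytes, had the strongest promoter of the ligands, at percentiles 94.8 and 97.9 with a change of 2.29 points. Cxcl10, encoding an interferon-induced chemokine, had an upstream region in both lists that kept its rank (60.9 and 61.1) and a promoter region in db/db only (chr5:92348707-92349083, percentile 21.7). Of the matches in its printed promoter, those to NF-kB and AP-1 lay inside that region and the ISRE match lay outside. Il33, the gene of the alarmin interleukin-33, had 1 intronic region in control and 5 regions in db/db. The 4 that were new had percentiles from 2.96 to 11.5, and 2 of them lay at the promoter.

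Lif, encoding a cytokine that protects photoreceptors and activates Müller cells, had 4 regions in both lists, and its promoter changed by −4.88 points. That region lay at an internal start within the gene and the 5′-most start had none. Cntf, a ciliary neurotrophic factor gene of the same family, had 3 regions in both lists, of which 2 control regions lay within 1 kb of the start, and these ranked 3.08 and 7.62 points higher in db/db. Il1b had 0 regions in either list. Tnf had 1 region in each, at percentiles 90.6 and 90.0, which lay at the start of the neighbouring gene Ltb.

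All 4 receptor genes had an open promoter in both lists. Il6st, encoding gp130, stood at percentiles 89.7 and 90.6, Lifr at 74.2 and 74.9, Osmr at 29.7 and 41.3, and Tnfrsf1a at 17.9 and 39.1. Their changes in rank were −3.11 for Il6st, −9.31 for Lifr, −3.52 for Osmr and 5.81 for Tnfrsf1a. Ranked by signal in the full lists, none of these promoters reached a change of 10 points. Ranked by −log10 p, the Tnfrsf1a promoter was more than 10 points higher in db/db. The changes were then −0.747 for Il6st, −3.50 for Lifr and −1.28 for Osmr. With the lists at equal size, the Lifr promoter changed by −10.4 points by signal.

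Ranked by signal in the full lists, introns of the receptor genes held larger changes than their promoters. Of 14 receptor regions found in both lists 4 ranked at least 10 points higher in db/db and 0 at least 10 lower, against 12.1% and 12.4% of the regions at coding genes. Osmr, the oncostatin M receptor gene, held 2 of them. One, at chr15:6840216-6840583 in the db/db list, ranked 53.8 in control and 75.6 in db/db (21.8 points), and the other, at chr15:6861485-6862050, ranked 32.5 and 48.8 (16.3 points). An intronic region of Lifr at chr15:7180548-7181017 ranked 28.3 and 43.5 (15.1 points), and one of Il6st at chr13:112469395-112469926 ranked 45.1 and 56.6 (11.6 points). These 4 intronic regions thus lay in the 3 receptor genes of the IL-6 family. Those genes are longer (46017 bp for Il6st, 61393 for Osmr and 106876 for Lifr) than Tnfrsf1a (13123 bp), and so have more room for regions. The shares at coding genes given for comparison were not matched on control rank, and a difference between the families was not tested. Tnfrsf1a, the TNF receptor gene, had no region with a change of 10 points in rank by signal. Lifr also had 3 regions found in db/db only. Tnfrsf1a had 1, upstream of the gene at percentile 64.8, the highest among the db/db-only member regions.

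The 6 genes of JAK-STAT signalling were open in both lists, and 2 of their 15 db/db regions were db/db-only (13.3%, 3.74 to 37.9%), an interval that holds the background of 29.1%. Stat2, a partner of IRF9 in the interferon response, had the strongest promoter of all members in control, at percentile 99.5 (signal 27.6), and stood at 97.9 in db/db. Stat3 stood at 86.8 and 86.6 and changed by −5.75 points. Jak1 stood at 94.4 and 96.1, and Jak2 at 64.3 and 77.1, with changes of 0.223 and 3.97 points. An intronic region of Jak1 (chr4:101168209-101168618) ranked 17.6 points higher in db/db.

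The feedback inhibitors Socs1 and Socs3 each had a promoter region and a downstream region in both lists. At Socs3 the promoter ranked 33.4 in control and 43.0 in db/db (9.61 points, just under the 10 counted here), while the downstream region ranked 64.9 and 49.4, a change of −15.5 points. At Socs1 the promoter changed by −4.76 points and the downstream region by −13.9.

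The NF-kB genes held 2 of the 4 member promoters that ranked at least 10 points higher in db/db. Tnfaip3, which encodes the NF-kB inhibitor A20, ranked 40.1 in control and 62.4 in db/db (22.3 points), the largest positive change among the 73 paired member regions. Its signal was 9.66 in control and 12.2 in db/db, and the −log10 p was 299 and 326. Ranked by −log10 p in place of the signal, the change was 1.94 points. Rela, encoding the p65 subunit, ranked 56.1 and 67.7 (11.6 points), with a change of 7.27 points when ranked by −log10 p. The matches to NF-kB and AP-1 in the Tnfaip3 promoter lay inside the region of both lists, and the Rela promoter held no match.

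Nfkbia, whose promoter stood at percentiles 62.1 and 71.3, changed by −1.80 points. Nfkb1, encoding the p50 precursor, had the weakest promoter of the members in control, at percentile 5.59, and 9.50 in db/db. It had 4 regions in control and 7 in db/db, and its region downstream of the gene ranked 12.0 points higher in db/db.

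The interferon regulatory factor genes Irf1, Irf7 and Irf9 were open in both lists, and the strongest promoter region of each ranked lower in db/db by signal. Irf9 stood at percentiles 95.9 and 94.4, Irf7 at 75.9 and 77.7, and Irf1 at 69.4 and 75.3, with changes in rank of −3.90, −7.16 and −3.80 points. The median changes of coding promoters in the same bins of control rank were −0.743, −3.08 and −3.57. Ranked by −log10 p, the changes were −2.97 for Irf9, −1.05 for Irf7 and 4.36 for Irf1. A weaker promoter region of Irf7 ranked 5.60 points higher by signal. Icam1, encoding an adhesion molecule for leukocytes, showed a split promoter. A region ending before the start ranked 28.9 in control and 6.29 in db/db. This change of −22.6 points was the largest negative change among the 73 paired member regions. Over the start itself, where the printed sequence holds a STAT match, a region was found in db/db only (chr9:21015655-21016112, percentile 27.0). Of the downstream regions assigned to Icam1, those at the starts of Icam4 and Icam5 changed by −4.06 and 17.7 points. A further one, with no other coding gene's start within 1 kb, changed by −8.95 points.

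Among the complement genes Serping1, encoding the C1 inhibitor, had a promoter region in both lists that ranked 53.2 in control and 63.5 in db/db (10.3 points). C4b had 0 regions in control and 1 over its start in db/db (percentile 8.76, −log10 p of 23.5). C4b has a near-identical neighbour, C4a, so reads there may not be assigned with certainty. C3, the central component, had no promoter region. It had 2 regions in control and 4 in db/db, and the shared ones changed by −4.56 and −5.42 points.

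The genes of antigen presentation were open in both lists. Of their 7 paired regions 0 ranked at least 10 points higher in db/db, a count too small to set against the 12.1% at coding genes. B2m, the light chain of MHC class I, stood at percentiles 88.2 and 88.5, and Tap1, a peptide transporter gene, at 91.8 and 88.8. The promoter region of Tap1 is shared with Psmb9, which starts next to it in the other direction, and a downstream region at the start of Psmb8 had a change of −10.6 points. Nlrc5, encoding an activator of MHC class I genes, stood at 73.4 and 82.9 with a change of 2.80 points, while an intronic region had a change of −15.1 points.

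Over all members, 73 pairs of regions could be ranked, of which 37 were higher and 36 lower in db/db, with a median change of 0.118 points. The SD over the 73 regions was 9.09 points, against 10.6 over all pairs. At least 10 points higher were 12 regions (16.4%), and at least 10 lower were 5 (6.85%), where 12.1% and 12.4% of the pairs at coding genes were. Without member regions at the starts of other genes, these were 11 and 4 of 67 (16.4% and 5.97%). The pairs at coding genes were not filtered in that way. Among 26 member promoters with a partner 11 were higher and 15 lower, with a median change of −1.54 points (−1.3 for all coding promoters). A promoter counted here only when its strongest promoter regions in both lists were partners, which left out Icam1 and Cntf. The shared promoter region of Icam1 changed by −22.6 points, and the control promoter regions of Cntf by 3.08 and 7.62. Of the 26, Tnfaip3, Il6, Rela and Serping1 were at least 10 points higher and 0 were at least 10 lower. Of all coding promoters counted in the same way, 5.53% and 13.2% were. Coding promoters in the same bins of control rank, each 10 points wide, would give 2.11 and 3.64. At Tnfaip3 and Serping1 the summits of the paired regions lay more than 100 bp apart, so both drop out when summits within 100 bp are required, and Il6 and Rela remain. These 4 promoters stood between ranks 40.1 and 69.3 in control.

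**Figure D4:**
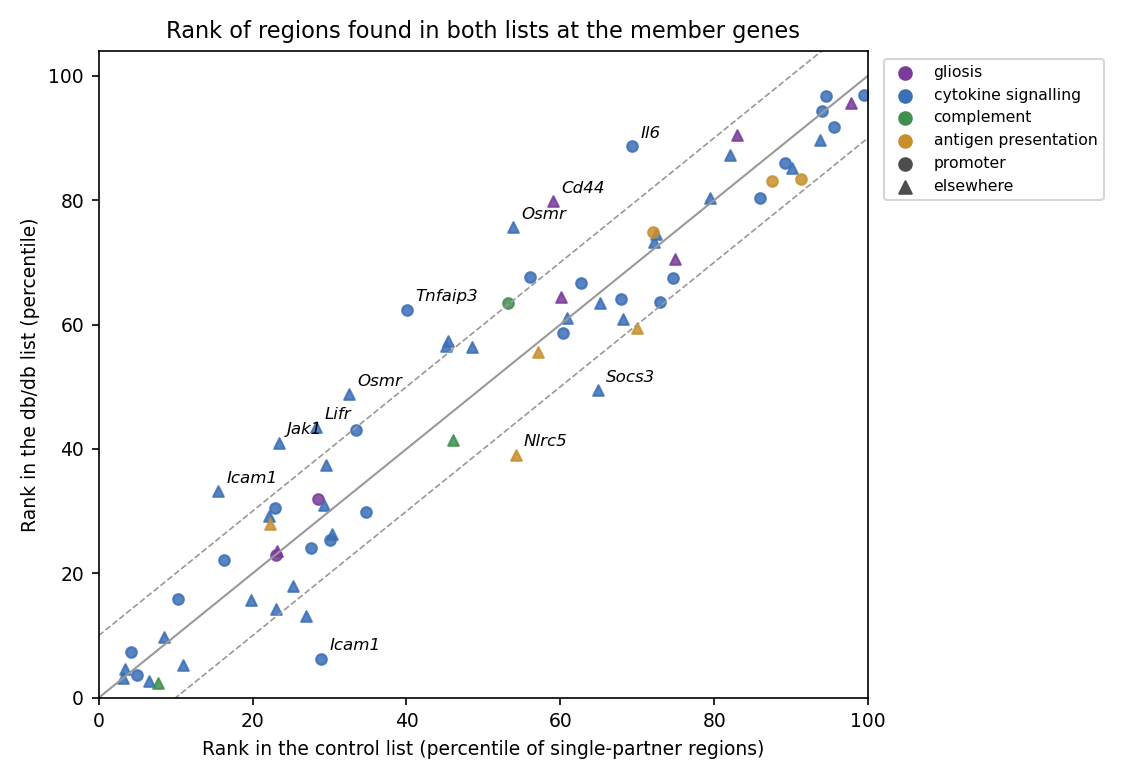
Rank of the 73 member regions found in both lists, in the control list (x axis) and the db/db list (y axis), as percentiles among all 43519 pairs. Colours give the group, circles promoters and triangles other positions. The solid line marks equal rank and the dashed lines a change of 10 points, and genes with a change of at least 15 points are named: Tnfaip3, Osmr, Cd44, Il6, Icam1, Jak1 and Lifr above, Icam1, Socs3 and Nlrc5 below.

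The strings were searched in 38 RefSeq promoters of 33 members, and Ccl2, Serping1, Nfkb1, C4b and Nlrc5 have no entry. The NF-kB string was found in 7 of the 38 (18.4%, against 8.46% of 32851 promoters of all genes), at B2m, Cxcl10, Il6, Irf1, Lif, Nfkbia and Tnfaip3. The AP-1 string was found in 6 (15.8%, against 7.81%), the STAT string in 5 (13.2%, against 8.30%), the ISRE string in 5 (13.2%, against 8.56%), the C/EBP string in 4 (10.5%, against 10.8%) and the GR string in 1 (2.63%, against 0.475%). The STAT matches were at Gfap, Icam1, Irf1, Socs3 and Tnfrsf1a, and the ISRE matches at B2m, Cxcl10, Nfkbia, Socs1 and Stat2. A match describes letters and not binding, and several of the genes are textbook targets of these factors, so their promoters were not a neutral choice.

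Of 75 other genes of the same pathways, 60 had an open promoter in control and 62 in db/db (80.0% and 82.7%). Hspb1, a small heat shock protein gene, and Cd55, which encodes a brake on complement, gained theirs among the 15 closed in control, and 0 of the 60 lost one, against 8.13% and 0.686% of all coding genes. Of their 191 db/db regions 42 were found in db/db only (22.0%, 16.7 to 28.4%, against 29.1% at all coding genes), and of their 150 control regions 5 in control only (3.33%, against 3.91%). Among 57 of their promoters with a partner S100a1 (10.8 points), Stat6 (11.3 points) and Erap1 (12.0 points) ranked at least 10 points higher. Psmb8 and Psmb10, encoding subunits of the immunoproteasome, ranked lower by at least 10 points, with changes of −10.6 and −15.0. These are 3 and 2 of 57, where 5.53% and 13.2% of all coding promoters passed 10 points. The other gliosis genes, among them Vim and Timp1, 10 genes in all, had 8 of 25 regions in db/db only (32.0%, 17.2 to 51.6%), an interval that holds the background of 29.1%.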

How the data were processed

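ATAC-seq was measured in Müller cells of control and db/db mice, and 1 peak list per genotype on mm10 was analysed. The 2 further ATAC-seq samples and 24 RNA-seq samples were not analysed here. The study names csaw for differential accessibility; the peak caller, its threshold and any pooling are not given in the sources used here. The values deposited by the authors for a peak are a score, −log10 p, −log10 q and a signal, which is a ratio (fold enrichment). They were compared within a list only.

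Overlapping rows were merged, keeping the row with the highest signal (81757 rows gave 46189 control regions, 109995 gave 64883 db/db regions). A region was shared when it overlapped the other list by at least 1 bp. Genes and starts came from GENCODE M21. Counts were made with pandas 2.3.3, scipy 1.17.1 and numpy 2.4.6 under Python 3.11.15, drawn with matplotlib 3.10.9, and tested on simulated data. Comparison genes were all coding genes, or all with equal numbers of regions; none were drawn at random. No test between genotypes was made.

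The members, lists and strings were chosen with earlier results of these data known. All 38 members are named. In full are given those without an open promoter in at least 1 list, those with most regions, those with a region past 10 points and the strongest promoters of each group. Promoter sequences are from RefSeq (GRCm38.p6). Alternatives were a 500 bp window, the 5′ end only, −log10 q of at least 5, lists of equal size, no flank or 10 kb, 50% overlap, summits within 100 bp, other rankings, all rows, no regions at other genes' starts, and stricter strings.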

Additional observations from a re-analysis of the deposited data

How the results depend on the processing

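The counts of open promoters under the alternatives run were 27 or 28 in control and 27 to 33 in db/db. At equal list size 28 members were open in control and 27 in db/db, so the higher count in db/db depended on list size. With the db/db list cut to the size of the control list, 6.85% of the control regions at members were control-only. Of the db/db regions 12.8% were then db/db-only (12.1% and 11.6% at all coding genes). The difference between the lists at the members as a whole thus depended on list size. With every row counted instead of merged regions there were 144 in control and 190 in db/db. Ranked by −log10 p, the median promoter percentile was 78.9 in control and 84.3 in db/db. Taken as the percentile in each whole list, the median change of shared member regions was 9.46 points, because the db/db list holds more weak regions. Under the equal-size, −log10 q and other-start alternatives for the change in rank, which were added after seeing the data, the median was −0.286, 0.121 and 0.388 points. The higher rank at Il6 stayed between 16.7 and 21.7 points, while those at Rela and Tnfaip3 were under 10 when ranked by −log10 p. The promoters of Nes and Tnfrsf1a, under 10 points by signal, were more than 10 points higher when ranked by −log10 p. At equal list size the Lifr promoter changed by −10.4 points. With summits within 100 bp required, Tnfaip3 and Serping1 had no pair, and Il6 and Rela gave 19.9 and 11.7 points. Stricter strings left 2 of 38 member promoters for STAT (5.26%, against 1.15% of all promoters) and 3 for ISRE (7.89%, against 0.819%). They left 5 for NF-kB (13.2%, against 1.37%) and 5 for AP-1 (13.2%, against 1709 of 32851 promoters). For C/EBP and GR they left 0 and 0 (against 0.350% and 0.222%). No paired analysis was possible because each genotype has a single list and no test was run. Depth is unknown, and regions missing from a list may lie under its threshold.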
